A study of Rattus norvegicus with 16 samples.

Results

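The REV-ERB receptor genes Nr1d1 and Nr1d2 and the retinoid-related orphan receptor gene Rorb were followed over all 16 arrays of a rat retina and pineal gland series. Every probe set annotated with 1 of these symbols was taken, which gave 4 of the 8799 probe sets: M25804_at and M25804_g_at for Nr1d1, U20796_at for Nr1d2 and L14610_at for Rorb. They stand for 3 of the 4736 genes named on the array. In the GRCr8 build Nr1d1 spans chromosome 10 from 84224599 to 84231812 on the minus strand, Nr1d2 chromosome 15 from 9955034 to 9981329 on the plus strand, and Rorb chromosome 1 from 225790216 to 225970973 on the minus strand. Each array carried total RNA of retina or pineal gland and was titled with hour 6 or hour 12 and with ZT, Zeitgeber time, or CT, circadian time. By convention ZT counts from lights on in a light-dark cycle and CT counts subjective time without one, but no label gives the lighting, strain, sex or age of the rats. At each of the 4 combinations of hour and regime there were 3 retina arrays, with title numbers 1 to 3, and a single pineal array. Whether numbered arrays came from separate animals is not stated, so p-values measure only the spread between these samples, which may be technical. The pineal array titled ZT 12 has a description giving 6 h, and the title was followed here. The source names call 3 pineal arrays eye and retina, and call the retina arrays numbered 3 and that pineal array brain and retina.

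REV-ERB proteins bind haem and repress transcription, and ROR proteins activate it, at the same response element, which lies in the promoter of the clock gene Bmal1. This loop couples the clock to metabolism. The products of Nr1d1 and Nr1d2 are REV-ERB alpha and REV-ERB beta, and their own transcription is driven by CLOCK and BMAL1 through E-boxes. The Rorb product is found in the retina, the pineal gland and the suprachiasmatic nucleus and takes part in photoreceptor development.

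The 250 bases upstream of the annotated starts are shown for 1 start of each gene, because the loop acts through short elements near such starts. RefSeq sequence of the GRCr8 build was used, and capitals mark a match to a searched element.
Nr1d1, chr10:84231813-84232062, minus strand: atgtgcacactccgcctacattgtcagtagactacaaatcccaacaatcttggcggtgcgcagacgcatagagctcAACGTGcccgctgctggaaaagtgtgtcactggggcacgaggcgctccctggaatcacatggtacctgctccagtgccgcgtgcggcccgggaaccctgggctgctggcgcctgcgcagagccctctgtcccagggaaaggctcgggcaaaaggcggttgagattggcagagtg
Nr1d2, chr15:9954784-9955033, plus strand: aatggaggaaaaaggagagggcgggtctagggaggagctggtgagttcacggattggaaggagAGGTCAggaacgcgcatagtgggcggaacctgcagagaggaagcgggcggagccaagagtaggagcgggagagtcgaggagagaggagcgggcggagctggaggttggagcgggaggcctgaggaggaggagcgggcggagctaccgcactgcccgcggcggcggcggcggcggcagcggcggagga
Rorb, chr1:225970974-225971223, minus strand: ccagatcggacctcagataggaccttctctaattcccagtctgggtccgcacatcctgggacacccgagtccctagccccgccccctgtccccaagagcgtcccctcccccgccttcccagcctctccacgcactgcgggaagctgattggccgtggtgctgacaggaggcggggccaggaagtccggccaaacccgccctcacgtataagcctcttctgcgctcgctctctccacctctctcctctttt
The elements searched on both strands were the E-box CACGTG, its variant CACGTT, the shared half-site AGGTCA, the D-box TTATGTAA and the cyclic AMP element TGACGTCA. The Nr1d1 window held the variant, read as AACGTG, at position -174 from the start. A second annotated Nr1d1 start, with the window chr10:84229455-84229704, had CACGTG at position -191. The Nr1d2 window held AGGTCA at position -187, and the Rorb window held none of these letters. Among 33469 windows of this length in the reference table, CACGTG occurred in 5.59%, CACGTT in 4.07%, AGGTCA in 14.1%, TTATGTAA in 0.828% and TGACGTCA in 1.59%. These matches describe the letters only.

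The deposited intensities had array medians of 671 to 858 in retina and 532 to 576 in pineal. The retina array numbered 1 at CT12 stood apart. Its median rank correlation with the other retina arrays was 0.838, against 0.944 to 0.962 for the others. Relative to the median of the other 11 retina arrays, the 5 rod genes on the array had a median deviation of -3.92 log2 units there, 6 ganglion cell genes -3.83 and 8 amacrine and horizontal cell genes -2.05, while 12 lens genes had +2.12. The differences, levels and list summaries that include it are therefore given with and without it. The pineal arrays had summed intensities of 5 pineal markers of 49461 to 67288, against 712 to 4229 in retina, with Asmt, Tph1 and Chrna3 high in pineal and Adrb1 lower there. Aanat, also in the sum, read 432 to 20036 in pineal and 111 to 525 in retina, so its ranges overlapped. The summed rod markers were 65367 to 92833 in pineal and 284173 to 456336 in retina without CT12 array 1. In tissue RNA, fewer cells of a type and less RNA per cell cannot be told apart.

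**Figure D1:**
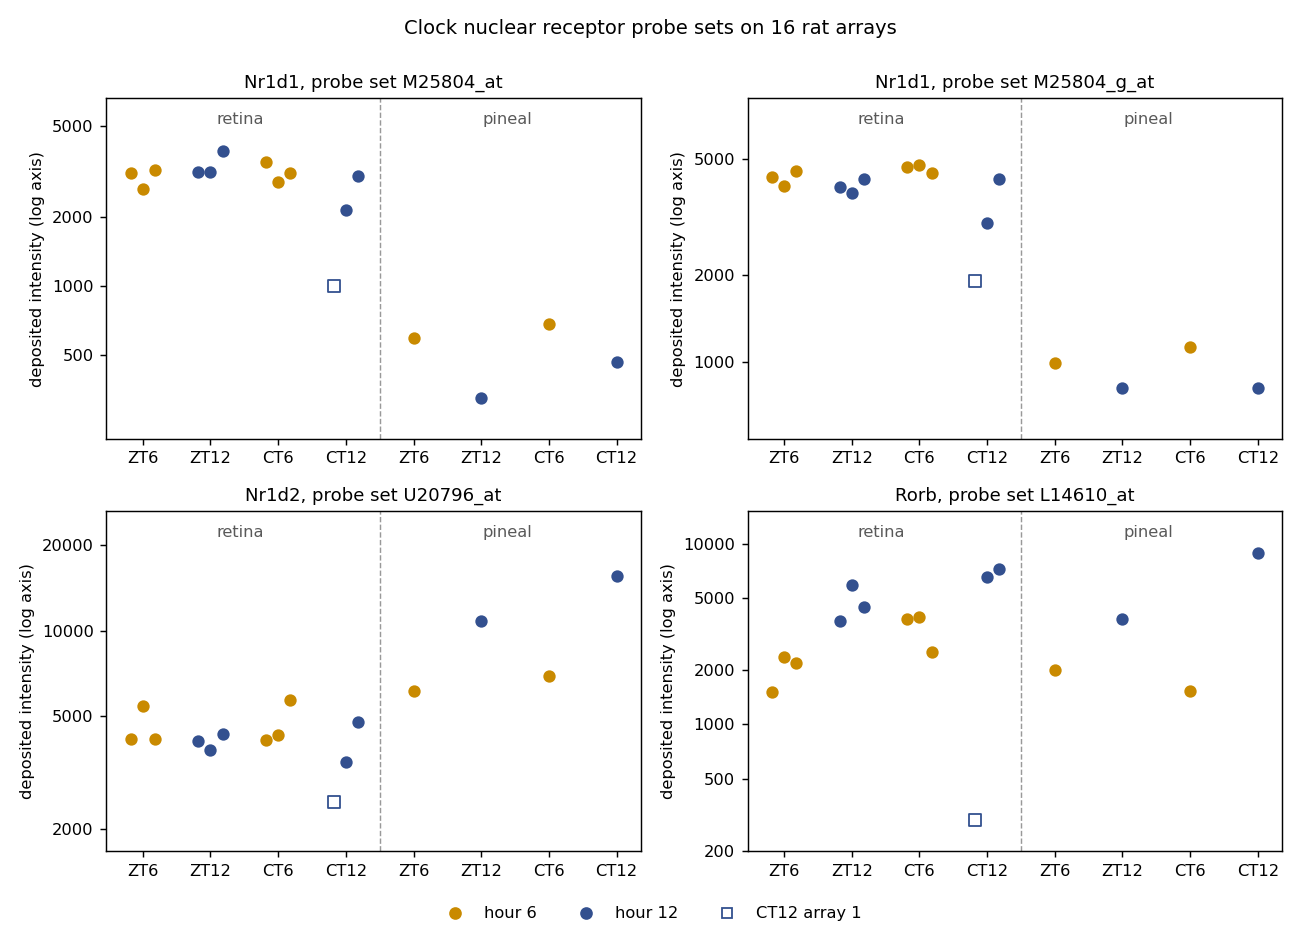
Deposited intensity of the 4 probe sets on a log axis, 1 point per array, for the 4 retina groups (3 arrays each) and the 4 pineal arrays, coloured by hour; the open square is CT12 array 1. Rorb read 297 on that array and 6579 and 7247 on the other CT12 arrays, and the pineal arrays were lower for Nr1d1 and higher for Nr1d2 than all retina arrays.

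CT12 array 1 read below all 11 other retina arrays for each of the 4 probe sets. The deviation was -3.45 log2 units for Rorb, which placed it at percentile 2.42 of all kept probe sets' deviations on that array. For Nr1d1 the deviation was -1.35 with M25804_at (percentile 14.5) and -0.87 with M25804_g_at (percentile 23.3). For Nr1d2 it was -0.40 (percentile 36.4), so many probe sets deviated further down on that array. The retinal neuron markers read low on the same array, and their part in the receptor values was not tested.

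**Figure D2:**
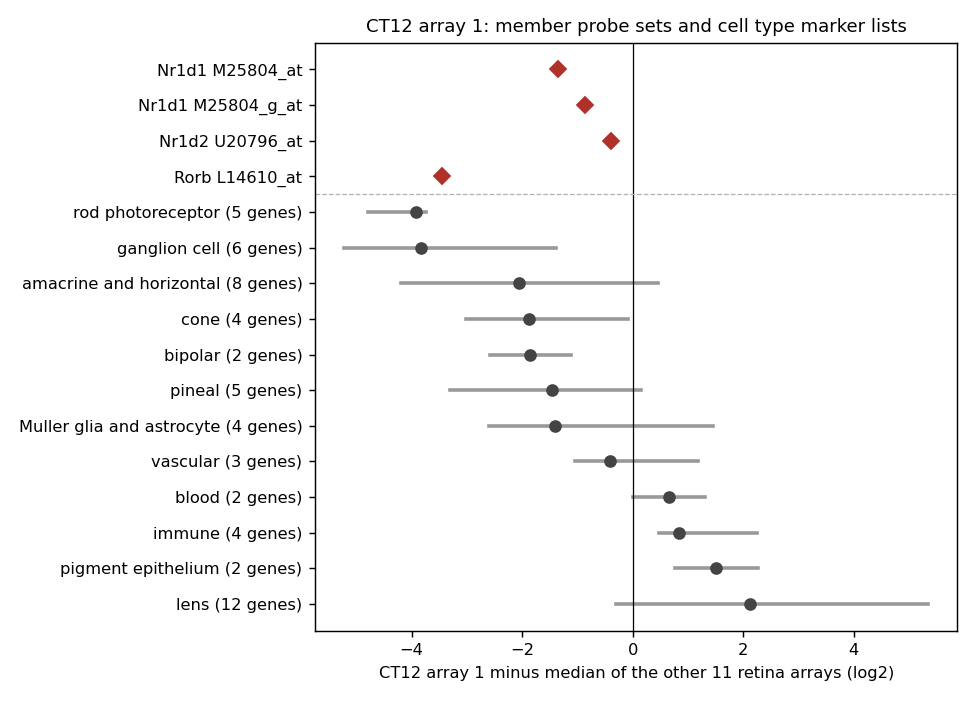
Log2 value on CT12 array 1 minus the median of the other 11 retina arrays, for the 4 probe sets (diamonds) and as the median (points) and range (bars) over the genes of each marker list. Rorb, at -3.45, lies near the medians of the rod (-3.92) and ganglion cell (-3.83) lists, and the lens list lies at +2.12.

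Rorb, the activating receptor, was higher at hour 12 than at hour 6 in the retina once CT12 array 1 was left out, by 2.24-fold over both regimes. With all 12 arrays no difference was called, that is, none reached a Benjamini-Hochberg adjusted p under 0.05 in limma. The deposited intensity at ZT6 was 1513, 2367 and 2182, and at ZT12 it was 3741, 5909 and 4461. At CT6 it was 3856, 3943 and 2517, and at CT12 it was 297, 6579 and 7247. Every ZT12 array was above every ZT6 array, and CT12 arrays 2 and 3 were above every CT6 array while array 1 was the lowest of all 12. Non-overlap with the later hour higher held for 10.3% of probe sets under ZT, and for 12.9% under CT without array 1. Across regimes the hours overlapped, since CT6 arrays 1 and 2 read above ZT12 array 1.

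All differences are on the scale of log2(intensity + 16) after quantile normalization and are given ± SE. Over all 12 arrays, hour 12 minus hour 6 of Rorb was 0.44 ± 0.66 (limma adjusted p = 0.697), and 0.21% of 5244 probe sets were called. Without CT12 array 1 it was 1.16 ± 0.18 (95% interval 0.77 to 1.56, adjusted p = 0.0141 in limma), against 1.3% called, 0.648% as higher. Under ZT alone, the difference was 1.22 ± 0.93 with all arrays in the fit (adjusted p = 0.824 in limma, 0.286% called). It was 1.22 ± 0.23 when CT12 array 1 no longer entered the shared spread, a 2.33-fold rise (limma adjusted p = 0.0383, 1.51% called, 0.915% as higher and 0.591% as lower). Under CT, the sign turned with that array, from -0.34 ± 0.93 (limma adjusted p = 0.805, 0.0381% called) to 1.11 ± 0.26 (limma adjusted p = 0.0926, 0.133% called). The difference between the CT and ZT hour effects was -1.57 ± 1.32 with all arrays (limma adjusted p = 0.516, 0.0191% called) and -0.11 ± 0.35 without CT12 array 1, with a 95% interval of -0.90 to 0.67 (limma adjusted p = 0.898, 0.0191% called).

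Further arrays left out after CT12 array 1, an analysis chosen after seeing the data, left the Rorb hour difference called in 11 of 11 cases, at 1.06 to 1.23 (limma adjusted p 0.0219 to 0.0455). The ZT difference stayed called in 2 of 11, at 1.02 to 1.35 (limma adjusted p 0.0225 to 0.154). The share of all probe sets called in these fits is not given here, so the counts do not set Rorb apart from other probe sets. The 12 lens genes had a median hour 12 minus hour 6 difference of 1.75 log2 units without CT12 array 1, against -0.03 over all probe sets, with 12 of 12 values above 0 and 0 called by limma. The summed lens intensity was 59885 to 781600 at ZT6, 595255 to 1429560 at ZT12, 53200 to 980183 at CT6 and 1005410 to 3836230 at CT12, so the hours overlapped under ZT and not under CT, and no lens gene read 0. With the mean lens level as a covariate and without CT12 array 1, the Rorb hour difference was still 1.16 but was not called (limma adjusted p = 0.0748), and the ZT difference of 1.22 was not called either (limma adjusted p = 0.0679). The part of lens RNA in the Rorb values was not tested further. Without CT12 array 1 and without that covariate, 2 of 7 tested amacrine and horizontal cell markers had a positive hour 12 minus hour 6 difference. Their median was -0.10, and the 5 rod markers had a median of -0.25.

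Between regimes, Rorb was higher under CT at both hours without CT12 array 1, but not past the test. The 3 CT6 arrays lay above the 3 ZT6 arrays, as 7.95% of probe sets did. CT12 arrays 2 and 3 lay above all ZT12 arrays, as 16.1% of probe sets did. CT minus ZT over both hours was -0.01 ± 0.66 with all arrays (limma adjusted p = 0.995) and 0.72 ± 0.18 without CT12 array 1 (limma adjusted p = 0.180), and 0.0% of probe sets were called in either fit. At hour 6 the difference was 0.77 ± 0.23 without that array (limma adjusted p = 0.351, 0.0% called), and at hour 12 it was 0.66 ± 0.26 (limma adjusted p = 0.220, 0.61% called and 0.0763% as higher).

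Nr1d1, the REV-ERB alpha gene, was measured by a pair of probe sets, and neither was called by limma in any of the 7 retina comparisons, with or without CT12 array 1. At an unadjusted p under 0.05, over all arrays, there was 1 difference for each: CT12 minus ZT12 for M25804_at and CT12 minus CT6 for M25804_g_at. M25804_at read 3097, 2641 and 3184 at ZT6 and 3123, 3151 and 3863 at ZT12. It read 3451, 2838 and 3103 at CT6 and 998, 2136 and 3017 at CT12. The CT12 arrays lay below all ZT12 arrays, as 16.1% of probe sets did, and arrays 2 and 3 alone did too, as 20.3% did. M25804_g_at read 4349, 4043 and 4562.5 at ZT6 and 4004, 3822 and 4285 at ZT12. It read 4701, 4773 and 4489.9 at CT6 and 1903, 3019.9 and 4265 at CT12. Here the CT12 arrays lay below all CT6 arrays, as 15.9% of probe sets did, and this held for arrays 2 and 3 alone, as for 19.9%.

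CT12 minus CT6 was -0.62 ± 0.28 for M25804_at (limma adjusted p = 0.182) and -0.53 ± 0.20 for M25804_g_at (limma adjusted p = 0.152), with 0.0381% of probe sets called. Over 11 arrays, that array left out, these were -0.25 ± 0.18 (limma adjusted p = 0.454) and -0.31 ± 0.15 (limma adjusted p = 0.305), so each value was over 1.5 times larger with that array. CT12 minus ZT12 was -0.75 ± 0.28 for M25804_at (limma adjusted p = 0.155, 0.61% called and 0.496% as lower), and -0.38 ± 0.18 without CT12 array 1 (limma adjusted p = 0.279, 0.534% called as lower). For M25804_g_at it was -0.34 ± 0.20 (limma adjusted p = 0.273) and -0.12 ± 0.15 without it (limma adjusted p = 0.703). Leaving out CT12 array 3 instead turned both probe sets into calls against CT6 (-0.94 and -0.75, limma adjusted p = 0.0296 and 0.0233) and against ZT12 (-1.07 and -0.56, limma adjusted p = 0.0224 and 0.0394). In those fits 24.9% and 20.4% of all probe sets were called. ZT12 minus ZT6 was 0.22 ± 0.28 and -0.08 ± 0.20, so the probe sets differed in sign there, neither past the test (limma adjusted p = 0.924 and 0.970). The same differences were 0.22 ± 0.16 and -0.08 ± 0.13 with CT12 array 1 out of the fit (limma adjusted p = 0.526 and 0.809). As deposited, the ZT12 arrays 1 and 2 of M25804_at read below ZT6 array 3, and after normalization all ZT12 arrays lay above all ZT6 arrays, as 10.3% of probe sets did.

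Nr1d2, the REV-ERB beta gene, was called by limma in none of the 7 retina comparisons, and none had an unadjusted p under 0.05. It read 4145, 5405 and 4132 at ZT6, 4069, 3784.5 and 4309 at ZT12, 4113, 4272 and 5692 at CT6, and 2496, 3434 and 4754 at CT12. The groups overlapped between hours in each regime and between regimes at each hour. Hour 12 minus hour 6 was -0.20 ± 0.14 (95% interval -0.51 to 0.11, limma adjusted p = 0.442), and -0.13 ± 0.13 without CT12 array 1 (95% interval -0.41 to 0.16, limma adjusted p = 0.622). CT minus ZT was -0.01 ± 0.14 (limma adjusted p = 0.971) and 0.06 ± 0.13 without that array (limma adjusted p = 0.880).

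**Figure D3:**
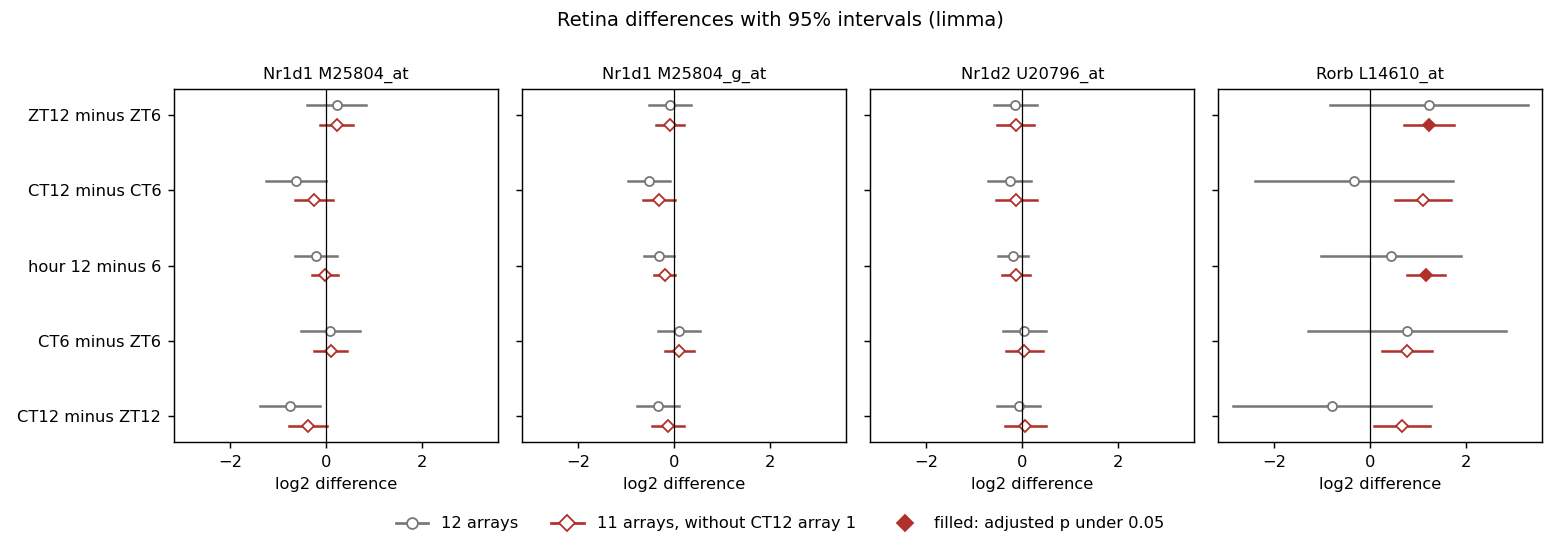
Log2 differences in the retina with 95% intervals from limma for the 4 probe sets, over 12 arrays (grey circles) and 11 arrays without CT12 array 1 (red diamonds), filled where the adjusted p was under 0.05. Rorb is called in hour 12 minus 6 (1.16) and ZT12 minus ZT6 (1.22) without that array, and the Nr1d1 and Nr1d2 values are called nowhere.

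Between the tissues, Nr1d1 was lower and Nr1d2 higher in pineal than in retina, while Rorb was not called. In pineal, M25804_at read 594 and 684 at hour 6 and 322 and 466 at hour 12, ZT before CT, against 998 to 3863 in retina with a median of 3099.7. M25804_g_at read 990.0, 1127, 813 and 815 in the same order, against 1903 to 4773. Nr1d2 read 6142, 6940.4, 10801 and 15535, against 2496 to 5692. For these 3 probe sets the tissues did not overlap, as for 51.6% of probe sets, with 24.4% lower and 27.2% higher in pineal. Rorb read 1993, 1534, 3858 and 8931, within and above the retina range of 297 to 7247.

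Pineal minus retina, with condition in the limma fit, was -1.97 ± 0.23 for M25804_at, a 3.92-fold lower level (adjusted p = 2.41e-06). It was -1.65 ± 0.14 for M25804_g_at, 3.13-fold lower (limma adjusted p = 8.48e-08). Nr1d2 differed by 1.04 ± 0.21, 2.06-fold higher in pineal (limma adjusted p = 0.000411). With CT12 array 1 left out these 3 differences were -2.08 ± 0.17, -1.71 ± 0.10 and 0.98 ± 0.19 (limma adjusted p = 6.79e-08, 1.71e-09 and 0.000301). Rorb differed by 0.30 ± 0.64 (limma adjusted p = 0.677), and by -0.08 ± 0.20 without CT12 array 1, with a 95% interval of -0.51 to 0.35. Calls were common in this comparison: 75.8% of the 5244 probe sets passed, 36.4% lower and 39.4% higher, and 80.9% passed without CT12 array 1. Scaling moved the median of all probe sets, which was 0.09 here, -0.23 with the values as deposited and 0.28 with a common median. The 3 called probe sets kept their direction and their call in all 25 alternatives.

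In the pineal, Rorb and Nr1d2 read higher at hour 12 than at hour 6 under both regimes, and Nr1d1 read lower. With 1 array per condition these are single pairs. Rorb had a deposited ratio of 1.94 under ZT and 5.82 under CT, and Nr1d2 had 1.76 and 2.24. The ratio of hour 12 to hour 6 was 0.542 and 0.681 for M25804_at, and 0.821 and 0.723 for M25804_g_at. A fit of hour and regime to the 4 pineal arrays has 1 residual degree of freedom. It called 0.0% of the 5244 probe sets in limma, and 687 had an unadjusted p under 0.05. The hour difference was 1.79 ± 0.46 for Rorb (limma adjusted p = 0.324), 0.99 ± 0.20 for Nr1d2 (limma adjusted p = 0.307), -0.64 ± 0.18 for M25804_at (limma adjusted p = 0.354) and -0.28 ± 0.18 for M25804_g_at (limma adjusted p = 0.539). No overlap of the 2 hours in pineal occurred in 20.3% of probe sets as higher and 25.4% as lower. Without the array whose title and description disagree on the hour, the Rorb and Nr1d2 values were 2.59 and 1.18, with no residual degree of freedom.

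An interaction over the 16 arrays tested the hour effect in pineal minus that in retina. Because each pineal condition has a single array, the fit assumed that the pineal varies like the retina. Its SE and p-values therefore rest mainly on the spread of the retina arrays. For Nr1d2 the difference of hour effects was 1.09 ± 0.30 (limma adjusted p = 0.132), with 0.629% of probe sets called. Without CT12 array 1 it was 1.01 ± 0.26 (limma adjusted p = 0.0609), with 3.05% called. For Rorb it was 0.98 ± 1.34 (limma adjusted p = 0.822) and 0.22 ± 0.40 without that array, with a 95% interval of -0.65 to 1.08. For Nr1d1 with M25804_at it was -0.45 ± 0.45 (limma adjusted p = 0.769), and -0.67 ± 0.27 without that array (limma adjusted p = 0.219). With M25804_g_at the sign turned with that array, from 0.06 ± 0.31 (limma adjusted p = 0.959) to -0.07 ± 0.21 (limma adjusted p = 0.920). Rorb was the one member for which hour 12 lay above hour 6 in each of the 4 tissue and regime pairs without overlap, CT12 array 1 left out, as 0.725% of probe sets did; 1.16% lay below in each.

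**Figure D4:**
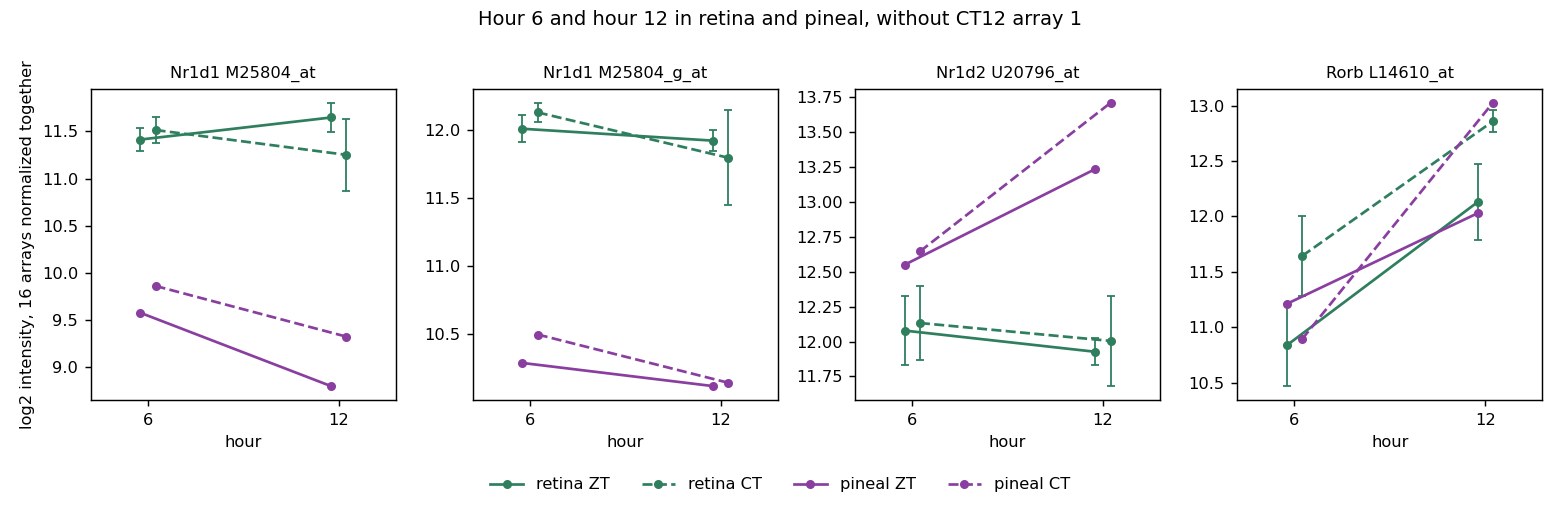
Mean log2 intensity at hour 6 and hour 12 in retina (green; 3 arrays, 2 at CT12, bars are SD) and pineal (purple; 1 array per point, no bar) under ZT (solid) and CT (dashed), 16 arrays normalized together and CT12 array 1 left out. Rorb lies higher at hour 12 on all 4 lines, and Nr1d2 only on the pineal lines, where its pairs differ by 0.69 and 1.07.

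On the scale of the 16 arrays together, and without CT12 array 1, the Rorb levels ran from pineal CT12 (13.03 log2 units) through retina CT12 (12.86 ± 0.10 SD, n = 2), retina ZT12 (12.13 ± 0.34 SD, n = 3), pineal ZT12 (12.03), retina CT6 (11.64 ± 0.36 SD, n = 3), pineal ZT6 (11.21) and pineal CT6 (10.89) to retina ZT6 (10.84 ± 0.37 SD, n = 3). Retina ZT12 and pineal ZT12 lay within 1 SD of each other, as did pineal CT6 and retina ZT6. Pineal ZT6 and CT6 had no replicate to compare them by, and the other gaps were larger than the SD of the neighbouring group. With all arrays, retina CT12 had a mean of 11.35 ± 2.62 (SD, n = 3) and stood after retina CT6 and before pineal ZT6, within 1 SD of both. For Nr1d2 the 4 pineal arrays, from 13.71 at CT12 to 12.55 at ZT6, came first, and the 4 retina groups, from 12.13 to 11.93, lay within 1 SD of their neighbours. With all arrays retina CT12 came last for Nr1d2, at 11.85 ± 0.35 (SD, n = 3), still within 1 SD of retina ZT12. For Nr1d1 the retina groups came first with both probe sets, and the pineal arrays ended the order. M25804_at ran from 11.65 in retina ZT12 to 8.80 in pineal ZT12, and M25804_g_at from 12.13 in retina CT6 to 10.12 in pineal ZT12. Neighbouring retina groups lay within 1 SD, except CT6 over ZT6 with M25804_g_at. The Nr1d1 orders were the same with all arrays, where retina CT12 was 10.87 ± 0.71 with M25804_at and 11.56 ± 0.47 with M25804_g_at (SD, n = 3).

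Thra, the thyroid hormone receptor alpha gene, overlaps Nr1d1 tail to tail on chromosome 10 (GRCr8, 84224599 to 84225659, 1061 bases), and it was read for that reason. Its brightest probe set M31174_at read 8091 to 15830.0 in retina and 11221 to 14949 in pineal, and its tissue difference was -0.16 ± 0.12 (limma adjusted p = 0.225), or -0.21 ± 0.09 without CT12 array 1 (limma adjusted p = 0.0418). Hour 12 minus hour 6 in retina was -0.37 ± 0.12 (limma adjusted p = 0.222), or -0.28 ± 0.09 without that array (limma adjusted p = 0.170). The tissue difference of Nr1d1, at -1.97 and -1.65, was thus larger than that of M31174_at on this scale. No test compared the genes. The Thra probe sets differed: X12744_at had a mean of 10.73 log2 units in pineal and 10.36 in retina. M31174_g_at, below the filter over 16 arrays, had 7.84 in pineal and 8.82 in retina. Without CT12 array 1 these retina means were 10.30 and 8.71.

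The pair of Nr1d1 probe sets correlated over the 12 retina arrays with r = 0.90, and with r = 0.64 over the 11 without CT12 array 1. Correlations here are Pearson's r of log2 values, without a test, and arrays share their normalization and their lens content. The genes most like Rorb among 3172 were Drd4 (r = 0.99 over 12 arrays), Wdr31, Pnpla3, Amd1 and Dusp1. Over 11 arrays they were Drd4 (r = 0.96), Wdr31, Ccnd3, P4ha1 and Map2k1. Drd4 encodes the dopamine D4 receptor. For M25804_at the list was Slc6a6 (r = 0.98), Zfp180, Eno1, Add1 and Dctn1 over 12 arrays, and Slc6a6 (r = 0.88), Eno1, Slc30a4, Vhl and Dctn1 over 11. The likeness of M25804_g_at was highest to Slc16a1 (r = 0.96), Sncb, Sirpa, Pkm and Grina over 12 arrays, and to Polr2a (r = 0.90), Slc16a1, Cacna1d, Sncb and Pik3r2 over 11. For Nr1d2 the list was Phax (r = 0.91), Nop58, Polr2h, Rfc4 and Prmt7 over 12, and Nop58 (r = 0.90), Pcp4, Phax, Ckmt1 and Ndufb8 over 11. Between members, Rorb and Nr1d2 correlated at r = 0.35 over 12 arrays and r = -0.25 over 11.

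Other genes of the pathway came from 4 lists: core clock, related nuclear receptors, REV-ERB and ROR targets, and cofactors with haem metabolism. In retina hour 12 minus hour 6 over all arrays, 0 of 8 core clock genes, 0 of 11 related receptors and 0 of 4 cofactor and haem genes were called. Among all probe sets 0.21% were called, 0.114% as higher and 0.0953% as lower, so counts of 0 in short lists are common. Of 8 target genes, 0 were higher and 1 lower: Cpt1a, carnitine palmitoyltransferase of the fatty acid oxidation route, fell by 1.06 on the log2 scale (SE 0.12, limma adjusted p = 0.00951), and by 0.97 without CT12 array 1 (limma adjusted p = 0.00124). List medians were -0.30 for core clock, 0.06 for related receptors, 0.16 for targets and 0.00 for cofactors and haem, against -0.05 over all probe sets. With CT12 array 1 left out the counts of called genes in the 4 lists were the same, where 1.3% of all probe sets were called. The medians were -0.19, 0.08, 0.16 and -0.06 in that order, against -0.03. Bmal1, in the core clock and target lists, was read here by AB012600_s_at, the brightest of its probe sets past the filter. It differed by -1.26 ± 0.71 over all arrays (limma adjusted p = 0.351) and by -0.46 ± 0.16 without CT12 array 1 (limma adjusted p = 0.193). Another Bmal1 probe set, AF015953_at, stood for the gene between tissues, and its retina differences are not given here. Per2 differed by 0.66 ± 0.19 (limma adjusted p = 0.187) and by 0.49 ± 0.12 without that array (limma adjusted p = 0.0816).

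Between tissues, 2 core clock genes were higher and 1 lower in pineal of 8, 2 and 5 of 11 related receptors, 2 and 3 of 8 targets, and 1 and 1 of 4 cofactor and haem genes, where 39.4% of all probe sets were called as higher and 36.4% as lower. They became, CT12 array 1 left out, 2 and 2, 4 and 6, 2 and 3, and 2 and 1, against 42.2% and 38.7% of all probe sets. The list medians were -0.07, -0.16, -0.07 and 0.70 in that order, against 0.09 over all probe sets, and -0.18, -0.21, -0.23 and 0.77, against 0.09, without that array. In limma, the smallest p-values over all arrays belonged, with their log2 differences, to Rxrg (2.68), a retinoid X receptor, Lpl (5.95), lipoprotein lipase, Rarb (-2.68), a retinoic acid receptor, Nr1h2 (-1.54), an oxysterol receptor, Srebf1 (-3.25), a lipid synthesis regulator, and Ppara (-2.34), a fatty acid receptor. In the interaction of hour and tissue, the hour effect of Per2 was larger in pineal by 3.82 ± 0.40 (limma adjusted p = 0.000376), where 0.629% of all probe sets were called. Per2 did not pass the filter of 8.39 log2 units in the fit of the pineal arrays alone. Its large value thus rests on low pineal readings, from single arrays, and on the same assumption about pineal spread as for the members. Without CT12 array 1, where Per2 stayed called at 4.01 ± 0.28, Dbp (1.10 ± 0.21, limma adjusted p = 0.0154) and Plin2 (-1.50 ± 0.29, limma adjusted p = 0.0184) were called as well. The share of all probe sets called was then 3.05%. Each list was chosen with earlier results of these data known and supports no direction of its own.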

How the data were processed

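The deposited values were used as given: linear intensities for 8799 probe sets on 16 Affymetrix arrays, and no source used here gives the software, background correction or scaling. Of these, 59 were controls. Symbols came from the platform annotation: 7006 probe sets carried 1 symbol, 308 several and 1426 none. Linear intensities were quantile normalized among the arrays of a fit, and then 16 was added and the log2 taken. Probe sets with a mean at or above the 40th percentile were kept (5244). The model fits and moderated two-sided tests used limma 3.58.1 under R 4.3.3. P-values were Benjamini-Hochberg adjusted over all kept probe sets at a threshold of 0.05. All 4 member probe sets passed the filter. The tests were run on simulated data first. The simulated spread came from the ZT6, ZT12 and CT6 retina arrays, without the CT12 group, so that run does not cover fits with CT12 array 1. Python 3.11.15 prepared and described the values. Named genes were all members, Thra, pathway genes past the test (up to 6 a comparison) and the 5 most like each member. Array number limits the precision. The members and lists were chosen with earlier results of these data known. Where array weights were used, each array had 1 weight, shared by all probe sets of the fit.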

Additional observations from a re-analysis of the deposited data

Results flagged for a closer look

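Among the 4 probe sets in 5 array groups each, 2 values lay apart from their group. They had a gap to the nearest other array, as a share of the group's range, above Dixon's 95% critical value, which chance exceeds in about 1 in 20 groups. Rorb on CT12 array 1 read 8.43 log2 units, the lowest of the 6 retina hour 12 arrays. The same value, 8.43, was also the lowest of the 6 retina CT arrays, a group that shares the CT12 arrays with the first and is not independent of it. Nr1d2 on ZT6 array 2 read 12.36 log2 units, the highest of the 6 retina ZT arrays.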

How the results depend on the processing

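The limits here are few arrays, 1 pineal array per condition, no stated replicate origin and 1 array, CT12 array 1, that decided the Rorb results. With all arrays, 0 member probe sets were called in each retina comparison. Leaving out 1 array gave 0 to 1 called for ZT12 minus ZT6 and for hour 12 minus 6, and 0 to 2 for CT12 minus CT6 and CT12 minus ZT12; the upper values came without CT12 array 1 in the first pair and without CT12 array 3 in the second. Array weights called Nr1d1 with M25804_g_at in CT12 minus CT6, Nr1d1 with M25804_at in CT12 minus ZT12, and Rorb in hour 12 minus 6. They gave CT12 array 1 a weight of 0.0839. The share of all probe sets called with array weights is not given here.

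Signs turned for values that were not called, and the cause was not tested. With the lens covariate Nr1d2 became 0.00087 in ZT12 minus ZT6, 0.055 in CT12 minus CT6, 0.11 in CT12 minus ZT12, 0.028 in hour 12 minus 6, 0.084 in CT minus ZT and 0.054 in the difference of hour effects, and Rorb became 0.010 in CT12 minus CT6 and 0.096 in CT minus ZT. With array weights Rorb was 0.86, 0.52 and 0.69 in CT12 minus CT6, CT12 minus ZT12 and CT minus ZT and -0.18 in pineal minus retina, and M25804_g_at was -0.081 in the pineal minus retina hour effect. An offset of 64 gave Rorb 0.0077 in CT minus ZT, and leaving out the arrays numbered 3 gave Nr1d2 -0.15 in CT6 minus ZT6. Leaving out 1 array, or CT12 array 1 with another, moved Rorb from -1.12 to 1.22 in CT12 minus CT6. Leaving out 1 array moved it from -1.57 to 0.66 in CT12 minus ZT12, from -0.40 to 0.72 in CT minus ZT and from -0.16 to 0.65 in pineal minus retina. Nr1d2 moved from -0.086 to 0.18 in CT6 minus ZT6, from -0.25 to 0.069 in CT12 minus ZT12, from -0.099 to 0.059 in CT minus ZT and from -0.30 to 0.020 in the difference of hour effects, and M25804_g_at from -0.067 to 0.15 in the pineal minus retina hour effect. With the lens covariate and 11 arrays, an alternative chosen after seeing the data, Rorb CT12 minus CT6 was 1.10.

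The replicate block (array number) over 12 arrays left 0 members called in the 7 retina comparisons, with Rorb at 0.44 in hour 12 minus 6 (limma adjusted p = 0.669). Same-numbered arrays correlated from -0.413 to 0.414 in their deviations from group means. Whether the numbers pair the samples cannot be decided from these values, because differently numbered arrays were not compared. Over the 11 arrays without CT12 array 1, the block gave Rorb 1.12 in hour 12 minus 6 (limma adjusted p = 0.0369), 1.22 in ZT12 minus ZT6, where the call made without the block was lost (limma adjusted p = 0.0513), and 1.03 in CT12 minus CT6 (limma adjusted p = 0.112). Leaving out a pineal array left no residual degree of freedom for the pineal hour difference, so it had no test.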
